A study of Homo sapiens with 6 samples.

Results

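Excision, mismatch and end-joining repair genes were examined in MV4-11 cells, an established human AML (acute myeloid leukemia) cell line, after inhibition of the WNK kinases. The 42 genes were taken from a list of symbols, each symbol matched exactly 1 of the 20348 rows of the deposited gene table, and all 42 passed the default filter on low counts. RNA-seq covered 3 Control samples, labelled untreated and called a blank control, and 3 samples exposed to 1 μM WNK463, a small molecule WNK inhibitor, for 48 h. Both groups were the same cell line, a single dose and a single time point were sampled, and the labels do not say whether the samples of a group were separate cultures, so p-values measure the spread between these samples, which may be technical. The genes were grouped by role into mismatch repair (5), DNA glycosylases (10), the later steps of base excision (6), nucleotide excision repair (12), end joining (5) and translesion synthesis (4).

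Cells keep separate repair routes for separate kinds of damage. Mismatch repair removes base pairing errors left behind the replication fork, base excision removes single damaged or wrong bases that a glycosylase recognises, and nucleotide excision cuts out bulky lesions such as those made by ultraviolet light. Non-homologous end joining seals double-strand breaks without a template, and translesion polymerases copy across lesions that stop the replicative polymerases. Several of these proteins, such as MSH6 and the nuclear form of UNG, work together with the sliding clamp PCNA at the replication fork.

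The libraries held 14915745 to 17411780 counts each, and mitochondrial transcripts took 4.07% to 4.75% of them. Of 10 markers of AML and monocytic precursors, 9 had more than 10 counts in every sample, and *CD14* did not. Among markers of other cell types, 0 of 6 lymphocyte and 0 of 5 erythroid markers passed 10 counts in every sample. Of 5 epithelial markers *KRT8* and *KRT18* did, while *EPCAM*, *KRT19* and *CDH1* were at 0, and the list summed to 18.5 to 20.7 CPM. Of 6 fibroblast and endothelial markers *PECAM1* alone did, while *COL1A2* and *COL3A1* were at 0, and the list summed to 91.8 to 106 CPM in Control and 164 to 177 CPM with WNK463. The summed level of the 10 precursor markers ranged from 2185 to 2303 CPM (counts per 1000000 of the TMM normalised library) in Control and from 1215.5 to 1239 CPM with WNK463. Without *LYZ*, whose counts were 19451 to 23047 in Control and 4752 to 4848 with WNK463, the other 9 summed to 859 to 904 CPM in Control and 928 to 937 CPM with WNK463. These 9 did not move together. By raw counts *MPO* (108 to 130 in Control, 14 to 31 with WNK463) and *CD33* were lower in every WNK463 sample. *CSF1R* (873 to 1025 in Control, 1770 to 2030 with WNK463), *HOXA9*, *MEIS1* and *ITGAM* were higher, and the raw counts of *FLT3*, *SPI1* and *CD14* overlapped. The part of these markers in the repair gene changes was not tested. Values after ± are the SD of the 3 samples of a group throughout.

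WNK463 lowered more of the repair genes than it raised, and by edgeR each of the 6 roles held genes that rose and genes that fell. In mismatch repair and the later steps of base excision the only riser, *PMS1* or *POLB*, was not called by DESeq2. By edgeR's quasi-likelihood test at an adjusted p below 0.05, 21 of the 42 genes fell and 11 rose, while 10 were not called. Over all 11973 tested genes 35.3% fell and 35.5% rose by the same rule, against 50% and 26.2% of the repair genes. The median log2 fold change was -0.22 over the repair genes and 0.02 over all tested genes. At a change of at least 2-fold, 5 repair genes fell (*UNG*, *MLH3*, *PRKDC*, *ERCC2* and *NEIL3*), where 5.55% of all tested genes fell and 9.62% rose. With TMM scaling 0 of the 42 rose that far by edgeR, also at an unadjusted p below 0.05, and 0 did by DESeq2. That split was not kept with total counts or with TPM. With total counts 2 rose at least 2-fold (*NEIL1* at 1.12 and *LIG4* at 1.10 on the log2 scale) and 1 fell (*UNG* at -1.71), while *MLH3*, *PRKDC*, *ERCC2* and *NEIL3* lay between -0.91 and -0.86. With limma on log2(TPM + 1), 1 rose (*NEIL1* at 1.5) and 1 fell (*UNG* at -1.65). The values of the groups did not overlap for 34 of the 42 genes (81.0%), and the same held for 73.5% of all tested genes.

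The balance depended on how libraries were scaled. When libraries were scaled to their totals alone, 14 repair genes rose and 16 fell, while the median over all tested genes moved from 0.02 to 0.17 and the share of all calls that were higher moved from 50.2% to 63.9%. With limma on log2(TPM + 1), 16 rose and 17 fell. Under all 14 alternative fits, 16 of the 21 lower genes and 7 of the 11 higher genes kept their call and direction. The lower genes that kept it were *MSH6*, *MLH3*, *UNG*, *OGG1*, *NEIL3*, *TDG*, *APEX1*, *PARP1*, *PARP2*, *ERCC1*, *ERCC2*, *DDB2*, *XRCC5*, *XRCC6*, *PRKDC* and *POLH*. The higher ones were *MUTYH*, *XPC*, *ERCC4*, *ERCC6*, *LIG4*, *POLK* and *REV3L*.

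**Figure D1:**
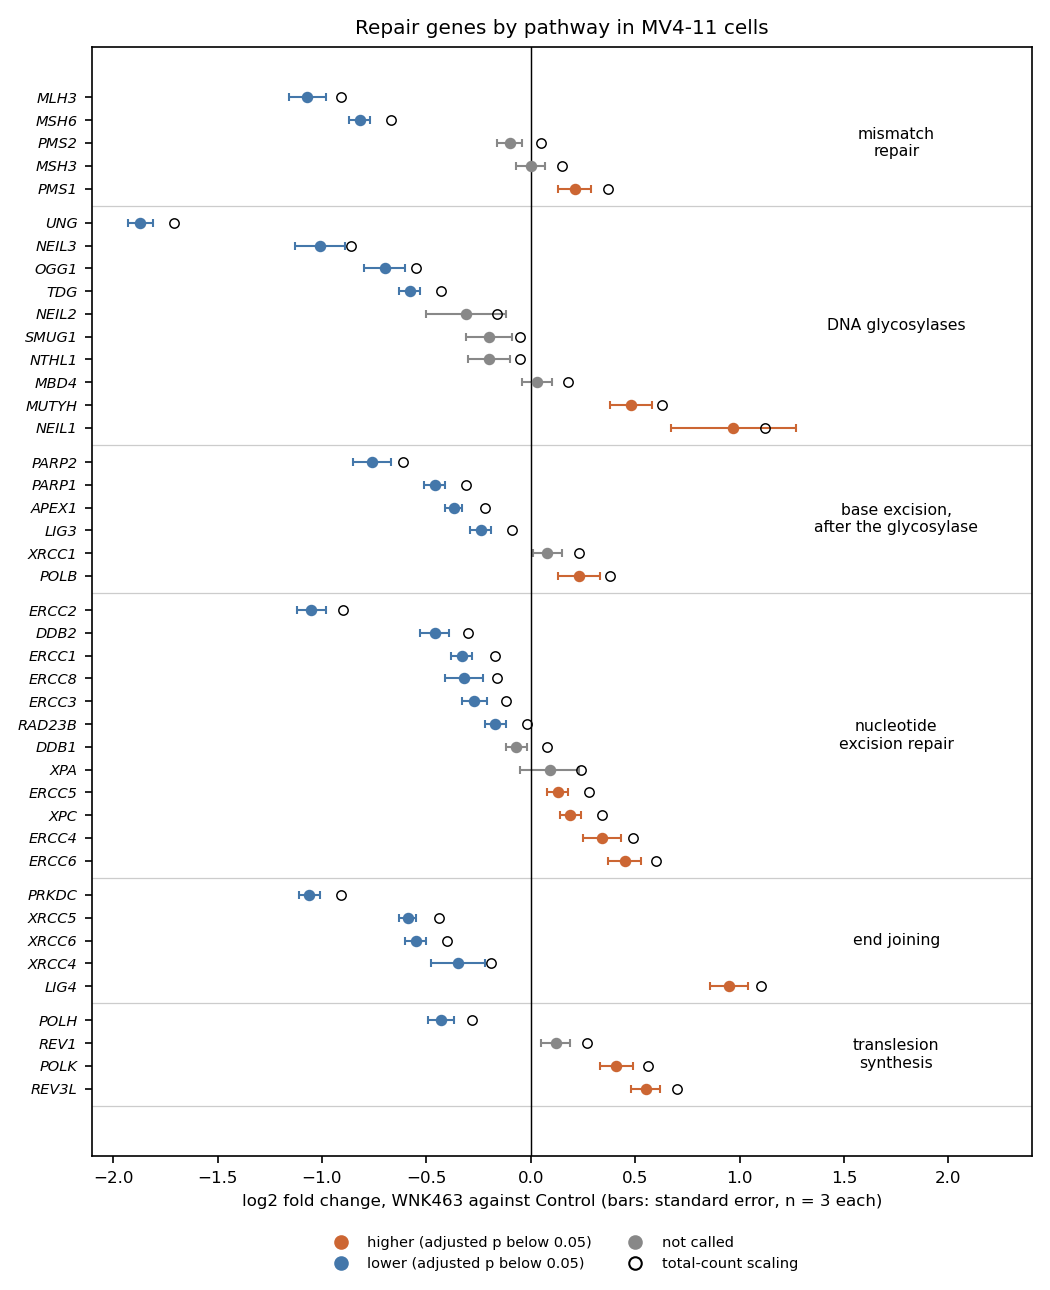
Log2 fold changes of the 42 repair genes with WNK463 against Control (filled points, bars are standard errors from edgeR, n = 3 each), grouped by role and coloured by the call at an adjusted p below 0.05. Open circles give the value with total-count scaling, which lies to the right of the filled point for each gene; *UNG* is farthest left at -1.87 and *NEIL1* farthest right at 0.97.

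Promoter sequence was compared for the 37 repair genes with an entry in the RefSeq promoter table (GRCh38.p14, 250 bases before to 50 after the start). *NEIL2*, *SMUG1*, *POLB*, *XRCC5* and *PRKDC* had none. E2F-like words (TTTCCCGC, TTTGGCGC, TTTCGCGC, TTTGCCGC or TTCCCGCC on either strand, where the first and the last can overlap) resemble the sites of the E2F factors that drive S phase genes. They were present in 6 of the 37 promoters (16.2%). These were 3 of 19 promoters of genes that fell (*MSH6*, *PARP2* and *XRCC6*) and 1 of 10 of those that rose (*XPC*). The highest share was among genes not called, with 2 of 8 (*MSH3* and *PMS2*). Among the promoters of all tested genes the share was 9.48%, and among all 27305 promoters of the table it was 5.57%. A full cyclic AMP response element, TGACGTCA, was present in 2 of the 37 (*PARP2* and *PMS2*), against 3.23% of tested genes. TTTGAA or TTTAAA within the last 100 bases before and the 50 bases after the start, words found in cell cycle homology regions, were present in 3 of the 37, against 6.39%.

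The word CATGCGC, part of the palindromic site of the factor NRF1, was searched after the sequences had been seen. It was present on either strand in 7 of the 37 promoters (18.9%), in 4 of 19 whose genes fell (*UNG*, *MLH3*, *NEIL3* and *XRCC6*), 2 of 10 whose genes rose (*LIG4* and *ERCC6*) and 1 of 8 not called (*MBD4*). In all tested genes the share was 7.94%. The sequences shown are the RefSeq bases from 120 before the start to the start, with matches to an E2F-like word or to CATGCGC in capitals. *UNG* (chr12:109097477-109097596, plus strand) is shown as the gene with the largest fall of the 42 and *MLH3* (chr14:75051468-75051587, minus strand) as another that fell at least 2-fold. *LIG4* (chr13:108218350-108218469, minus strand) is shown because it rose with the same word near its start.
UNG: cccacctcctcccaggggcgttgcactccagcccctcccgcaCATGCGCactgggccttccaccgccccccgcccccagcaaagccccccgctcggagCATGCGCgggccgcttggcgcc
MLH3: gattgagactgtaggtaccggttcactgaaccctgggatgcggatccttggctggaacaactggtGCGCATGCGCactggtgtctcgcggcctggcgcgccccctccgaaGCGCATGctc
LIG4: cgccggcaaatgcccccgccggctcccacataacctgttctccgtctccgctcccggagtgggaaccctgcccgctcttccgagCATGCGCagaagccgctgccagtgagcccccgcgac

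*MSH3* (chr5:80654532-80654651, plus strand) and *PARP2* (chr14:20343515-20343634, plus strand) are shown over the same window because each holds an E2F-like word before its start, and only *PARP2* fell. For *MSH6* the word lies just after the start, so 15 bases on each side of it are shown (chr2:47783130-47783159, plus strand). In *MSH3* the capitals span overlapping words read on opposite strands.
MSH3: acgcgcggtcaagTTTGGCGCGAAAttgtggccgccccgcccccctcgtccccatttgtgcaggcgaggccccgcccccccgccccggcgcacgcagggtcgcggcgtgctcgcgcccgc
PARP2: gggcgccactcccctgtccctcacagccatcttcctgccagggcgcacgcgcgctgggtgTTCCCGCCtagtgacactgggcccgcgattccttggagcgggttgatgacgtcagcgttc
MSH6: agcgcgcctccccccagaTTTCCCGCCagc

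In mismatch repair, *MSH6* and *MLH3* fell, *PMS1* rose, and *MSH3* and *PMS2* were not called. MSH6 forms the MutS alpha complex, which recognises single mismatches and short loops, whereas MSH3 forms MutS beta, which recognises larger loops, and both bind the same partner subunit. *MSH6* (ENSG00000116062, chromosome 2, 47695530 to 47810101 in GENCODE 29) had 178, 186 and 195 CPM in Control and 107, 104 and 106 CPM with WNK463. Every WNK463 value lay below every Control value, with a log2 fold change of -0.82 (standard error 0.05, adjusted p = 1.37e-10 from edgeR). *MSH6* shares 1785 exonic bases with *FBXO11* on the other strand, which had means of 94.7 and 94.9 CPM in Control and with WNK463 and was not called. The strand setting of the counting is not given, so reads there cannot be told apart. *MSH3* (ENSG00000113318) had 36.5, 39.0 and 38.1 CPM in Control and 38.6, 35.1 and 39.6 CPM with WNK463, so its groups overlapped around the same mean (log2 fold change 0.00, standard error 0.07, adjusted p = 0.958).

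The count ratio of *MSH6* to *MSH3* within a library does not depend on scaling. It was 4.88, 4.76 and 5.13 in Control and 2.77, 2.98 and 2.67 with WNK463, a 1.76-fold lower ratio (log2 change -0.81). It was 1 of 9 such ratios reported, all formed after the values were seen, and the exact two-sided permutation test gave p = 0.1, the smallest that 3 samples against 3 allow, and 0.129 after Benjamini-Hochberg adjustment over the 9. In TPM (transcripts per 1000000, which divides by length), *MSH3* was 19.97 ± 2.92 in Control and 25.4 ± 0.567 in treated samples (SD, n = 3 each), and limma on log2(TPM + 1) called it higher (log2 fold change 0.34, adjusted p = 0.0159). Part of the gap between counts and TPM came with the scaling, since edgeR on counts scaled to library totals gave 0.15 for *MSH3*. The length that counts and TPM imply for *MSH3* was also shorter with WNK463, by 0.20 on the log2 scale. That shift was at percentile 94.8 in absolute size among 9170 genes with at least 100 counts in every sample. The implied length also varied within Control, from 0.913 to 1.12 times its mean.

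The MutL proteins act after MutS recognition. *MLH3* (ENSG00000119684, chromosome 14, 75013764 to 75051532), whose product takes part in meiotic crossovers and in a minor MutL complex, had 32.3, 34.8 and 37.0 CPM in Control and 18.6, 15.8 and 15.3 CPM with WNK463. The groups were apart, with a log2 fold change of -1.07 (standard error 0.09, adjusted p = 8.99e-09 from edgeR). *PMS2*, the endonuclease subunit of the main MutL complex, had 68.8 ± 2.15 and 64.0 ± 1.59 CPM (SD, n = 3 each) and was not called (log2 fold change -0.10, adjusted p = 0.107 from edgeR). *PMS2* has near-identical pseudogene copies, so its count is uncertain. *PMS1* rose from 34.5 ± 3.32 to 40.0 ± 1.69 CPM (log2 fold change 0.21, adjusted p = 0.0204 from edgeR), and this call was lost by DESeq2 and without Control replicate 1, WNK463 replicate 1 or WNK463 replicate 2, with log2 fold changes from 0.13 to 0.21.

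Of the 10 DNA glycosylases 4 fell, 2 rose and 4 were not called. UNG removes uracil from DNA, both after cytosine deamination and after misincorporation during replication. *UNG* (ENSG00000076248, chromosome 12, 109097574 to 109110992) had 116, 113 and 104 CPM in Control and 30.7, 30.1 and 30.8 CPM with WNK463. The 3 treated values were nearly equal and lay far below Control, with a log2 fold change of -1.87 (standard error 0.06, adjusted p = 5.05e-14 from edgeR), the largest of the 42 in absolute size. By mean TPM *UNG* went from rank 8 among the 42 genes in Control to rank 22 with WNK463.

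The other uracil glycosylases did not show a fall of that size. SMUG1 removes uracil and oxidised pyrimidines outside replication, and *SMUG1* averaged 13.1 ± 0.842 CPM in Control and 11.4 ± 0.576 CPM when treated (SD, n = 3 per group; log2 fold change -0.20, adjusted p = 0.105 from edgeR). The count ratio of *UNG* to *SMUG1* was 8.31 to 8.66 in Control and 2.50 to 2.82 with WNK463, a 3.17-fold lower ratio with no overlap (exact permutation p = 0.1). TDG and MBD4 excise thymine or uracil opposite guanine, as left by deamination at CpG sites. *TDG* fell from 118 ± 4.98 to 79.0 ± 1.97 CPM (log2 fold change -0.58, standard error 0.05, adjusted p = 2.74e-08 from edgeR), while *MBD4* had 47.5 ± 4.83 and 48.5 ± 0.721 CPM and was not called with TMM (adjusted p = 0.706), though it passed as higher with total counts (0.18, adjusted p = 0.0374).

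OGG1 and MUTYH act in turn on oxidised guanine: OGG1 removes it opposite cytosine, and MUTYH removes the adenine that replication places opposite it. Their transcripts moved in opposite directions. *OGG1* had 19.97, 18.7 and 20.1 CPM in Control and 12.2, 13.3 and 10.7 CPM with WNK463, without overlap (log2 fold change -0.70, standard error 0.10, adjusted p = 7.98e-06 from edgeR). *MUTYH* averaged 14.4 ± 1.70 CPM in Control and 20.04 ± 0.962 CPM when treated (SD, n = 3 per group) and rose by 0.48 on the log2 scale (adjusted p = 0.000425 from edgeR). Both genes share exons with genes on the other strand, and the strand setting of the counting is not given in the sources used here, so reads of the partners cannot be told apart there. *CAMK1* shares 2180 bases with *OGG1* and had mean levels of 4.40 and 5.36 CPM in Control and with WNK463 (not called), and *TOE1* shares 552 bases with *MUTYH* and fell (log2 fold change -0.67).

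The NEIL glycosylases remove oxidised pyrimidines, and NEIL3 is known from proliferating cells and from unhooking crosslinks at forks. *NEIL3* had 19.0, 23.9 and 26.2 CPM in Control and 10.8, 10.9 and 12.5 CPM with WNK463 (log2 fold change -1.01, standard error 0.12, adjusted p = 5.16e-07 from edgeR). Its Control samples spread widely but all lay above the treated ones. *NEIL1* had the lowest level of the 42 by Control TPM, with 2.01, 1.92 and 0.976 CPM in Control and 2.42, 3.95 and 3.19 CPM with WNK463. Its groups did not overlap, and it was called higher (log2 fold change 0.97, standard error 0.30, adjusted p = 0.00762 from edgeR), but not without Control replicate 3 (0.68, adjusted p = 0.0526) or without WNK463 replicate 2 (0.78, adjusted p = 0.0561). *NEIL1* shares 1831 exonic bases with *MAN2C1* on the other strand, which had means of 51.1 and 53.3 CPM and was not called. The count ratio of *NEIL3* to *NEIL1* was 9.45 to 26.8 in Control and 2.75 to 4.47 with WNK463, without overlap (log2 change -2.01, exact permutation p = 0.1). *NEIL2* (5.24 ± 0.649 and 4.22 ± 0.621 CPM) and *NTHL1* (17.6 ± 0.628 and 15.3 ± 1.27 CPM) were not called.

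**Figure D2:**
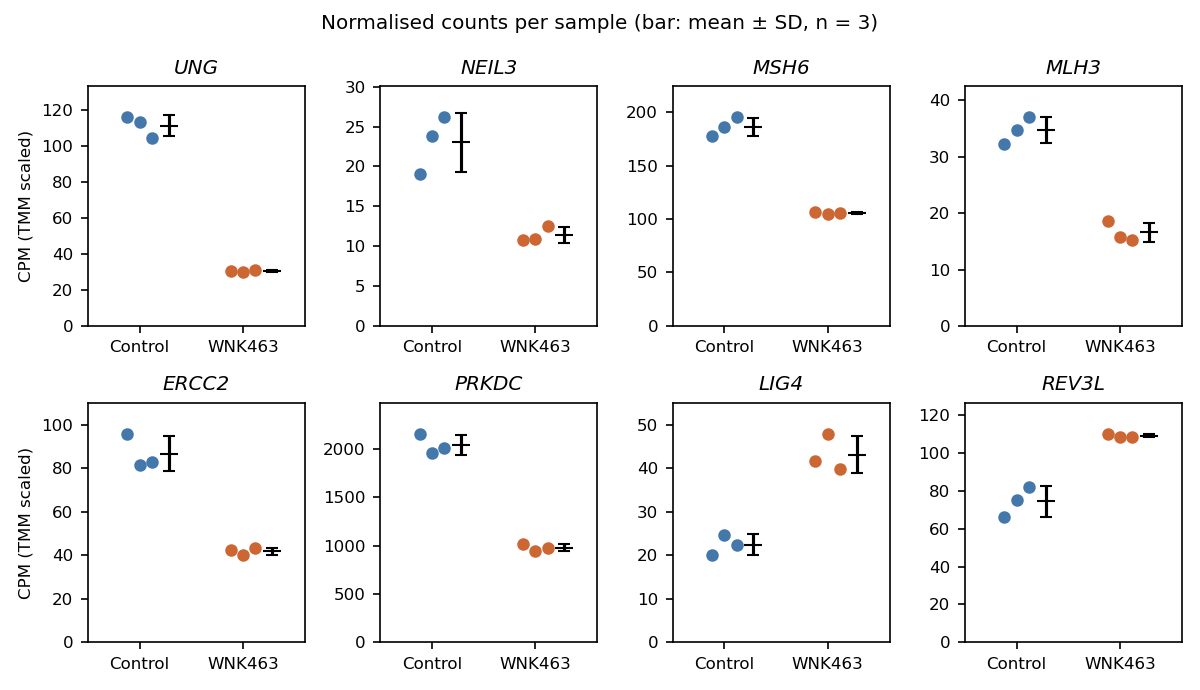
Normalised counts (CPM, TMM scaled, each axis from 0) of 8 repair genes in the 3 Control and 3 WNK463 samples; points are samples and black bars the mean ± SD. In each panel the groups do not overlap: *UNG*, *NEIL3*, *MSH6*, *MLH3*, *ERCC2* and *PRKDC* are lower with WNK463, and *LIG4* and *REV3L* are higher.

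After the glycosylase, base excision needs an endonuclease, a gap-filling polymerase, a ligase and its scaffold, with the PARP enzymes as sensors of the nick. Here 4 of 6 genes fell and 1 rose, with changes under 2-fold. PARP1 and PARP2 both bind single-strand breaks and make poly(ADP-ribose). *PARP1* had 382, 405 and 369 CPM in Control and 282, 271 and 285 CPM with WNK463 (log2 fold change -0.46, standard error 0.05, adjusted p = 1.1e-07 from edgeR), and *PARP2* had 32.1, 29.5 and 30.9 CPM in Control and 17.8, 20.1 and 16.7 CPM with WNK463 (-0.76, standard error 0.09, adjusted p = 4.19e-07). Both sets of values were apart between groups. The ratio of *PARP2* to *PARP1* counts overlapped between groups (exact permutation p = 0.2), so a difference between their falls was not shown; its log2 change was -0.30.

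*APEX1*, the abasic site endonuclease, had the highest level of the 42 genes in both groups, at 892 ± 25.3 TPM in Control and 784 ± 6.54 TPM with WNK463 (SD, n = 3 each). It fell from 661 ± 10.9 to 511 ± 1.57 CPM (log2 fold change -0.37, adjusted p = 3.57e-07 from edgeR). The ligase *LIG3* fell by 0.24 on the log2 scale (adjusted p = 0.000662), a call lost with total counts (-0.09, adjusted p = 0.147). *RFFL*, which shares 3754 exonic bases with *LIG3* on the other strand, rose (log2 fold change 1.10). The scaffold *XRCC1* had 32.8 ± 0.416 and 34.7 ± 2.15 CPM and was not called with TMM, but passed as higher with total counts (0.23, adjusted p = 0.00919). *POLB*, the gap-filling polymerase, rose from 14.0 ± 1.04 to 16.4 ± 0.398 CPM (log2 fold change 0.23, adjusted p = 0.0478 from edgeR), and that call was lost by DESeq2, with no filter on low counts, with the replicate block and in 5 of the 6 fits without a sample.

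In nucleotide excision repair 6 of 12 genes fell and 4 rose, with a median log2 fold change of -0.12. Damage is found by XPC with RAD23B, by the DDB1-DDB2 complex, or by a stalled polymerase with ERCC6 and ERCC8. TFIIH, with its helicases ERCC2 and ERCC3, then opens the helix, XPA checks it, and the nucleases ERCC5 and ERCC4-ERCC1 cut. *ERCC2* (ENSG00000104884, chromosome 19, 45349837 to 45370918) had 95.8, 81.5 and 82.8 CPM in Control and 42.5, 39.9 and 43.2 CPM with WNK463. The treated values were all below Control (log2 fold change -1.05, standard error 0.07, adjusted p = 2.89e-10 from edgeR). The partner helicase *ERCC3* went from 53.1 ± 2.77 to 44.0 ± 1.21 CPM (-0.27, adjusted p = 0.000988), and was not called with total counts or TPM.

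TFIIH also serves transcription, and its other subunits did not all fall with *ERCC2*. Those that fell did so by less. The count ratio of *ERCC2* to *ERCC3* was 1.55 to 1.72 in Control and 0.881 to 0.991 with WNK463, a 1.71-fold lower ratio with no overlap (exact permutation p = 0.1). Of the other TFIIH subunits, *GTF2H1* and *GTF2H3* fell by 0.33 and 0.21 on the log2 scale and *GTF2H2* and *MNAT1* rose by 0.17 and 0.25, named after their values were seen. *GTF2H4*, *GTF2H5*, *CDK7* and *CCNH* were not called, with log2 fold changes from 0.07 to 0.19.

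Within each route of damage sensing 1 gene rose and another fell. *ERCC6* rose from 26.0 ± 1.37 to 35.5 ± 1.49 CPM (log2 fold change 0.45, adjusted p = 3.68e-05 from edgeR), while *ERCC8*, of the same transcription-coupled route, fell from 19.8 ± 1.14 to 15.9 ± 0.320 CPM (-0.32, adjusted p = 0.0046), a call lost with total counts and with TPM. In the global route *XPC* rose from 98.8 ± 4.98 to 113 ± 1.76 CPM (0.19, adjusted p = 0.00373) and *DDB2* fell from 63.9 ± 4.83 to 46.7 ± 1.11 CPM (-0.46, adjusted p = 7.06e-06). *XPC* and *DDB2* are both known p53 targets, and of 22 other p53 targets 11 rose and 7 fell, with a median of 0.19. *RAD23B* fell by 0.17 on the log2 scale with TMM and was not called with total counts or TPM. *DDB1* was not called with TMM (474 ± 18.7 and 451 ± 15.9 CPM), but passed as higher with limma on log2(TPM + 1) (0.12, adjusted p = 0.0361), and *XPA* had overlapping groups (10.1 ± 2.17 and 10.8 ± 0.592 CPM).

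The incision nucleases also differed. *ERCC4* rose from 26.1 ± 2.11 to 33.0 ± 2.85 CPM (log2 fold change 0.34, adjusted p = 0.00169 from edgeR), whereas its obligate partner *ERCC1* fell from 109.6 ± 0.457 to 87.4 ± 4.63 CPM (-0.33, adjusted p = 3.27e-05). On the other strand *ERCC1* shares 1593 exonic bases with *CD3EAP*, *ERCC4* 2174 with *AC010401.1* and *XPC* 1140 with *AC093495.1*. No values were found under these 3 names, so the origin of reads there is uncertain. *ERCC5* rose by 0.13 (adjusted p = 0.0269) and lost the call under 6 of the 14 alternatives. Its exons share 5213 bases with the read-through gene *BIVM-ERCC5* on the same strand, which had means of 1.295 and 1.594 CPM, so the split of reads between these entries is uncertain.

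End joining had 4 of 5 genes lower and 1 higher. The Ku heterodimer (XRCC5 and XRCC6) binds the broken end and recruits the kinase PRKDC, and XRCC4 with LIG4 seals the ends. *PRKDC* (ENSG00000253729) had 2157, 1958 and 2008 CPM in Control and 1015, 945 and 978 CPM with WNK463 (log2 fold change -1.06, standard error 0.05, adjusted p = 2.44e-12 from edgeR). *XRCC5* had 926, 930.0 and 933 CPM in Control and 615, 619 and 620.5 CPM with WNK463 (-0.59, standard error 0.04, adjusted p = 6.65e-10), and *XRCC6* fell from 743 ± 30.3 to 507 ± 22.2 CPM (-0.55, adjusted p = 1.1e-08). Replicates of *XRCC5* lay close together within each group, and all 3 genes were apart between groups.

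No difference between the changes of the Ku subunits was detected, which does not show that they changed alike. The ratio of *XRCC5* to *XRCC6* counts was 1.19 to 1.30 in Control and 1.19 to 1.29 with WNK463, with a log2 change of -0.04 and overlapping groups (exact permutation p = 0.5). The ratio of *PRKDC* to *XRCC5* counts was 2.11 to 2.33 in Control and 1.53 to 1.65 with WNK463, without overlap (log2 change -0.47, exact permutation p = 0.1). By TPM the Ku genes and *PRKDC* held ranks 2 to 4 of the 42 in Control, behind *APEX1*.

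The ligase complex went the other way in part. *LIG4* (ENSG00000174405, chromosome 13, 108207439 to 108218368) had 19.97, 24.8 and 22.4 CPM in Control and 41.6, 47.9 and 39.9 CPM with WNK463. All treated values lay above Control, and the log2 fold change of 0.95 (standard error 0.09, adjusted p = 3.75e-08 from edgeR) had the smallest p among the repair genes that rose. *XRCC4*, which holds LIG4 in place, had 17.2 ± 3.34 CPM in Control and 13.5 ± 1.25 CPM with WNK463 with overlapping groups (-0.35, adjusted p = 0.0216). Its call was lost with total counts (-0.19), with TPM, without Control replicate 3 (-0.20) and without WNK463 replicate 1 (-0.28). The ratio of *LIG4* to *XRCC4* counts rose 2.43-fold, from 1.09 to 1.46 in Control to 2.93 to 3.39 with WNK463 (exact permutation p = 0.1).

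**Figure D3:**
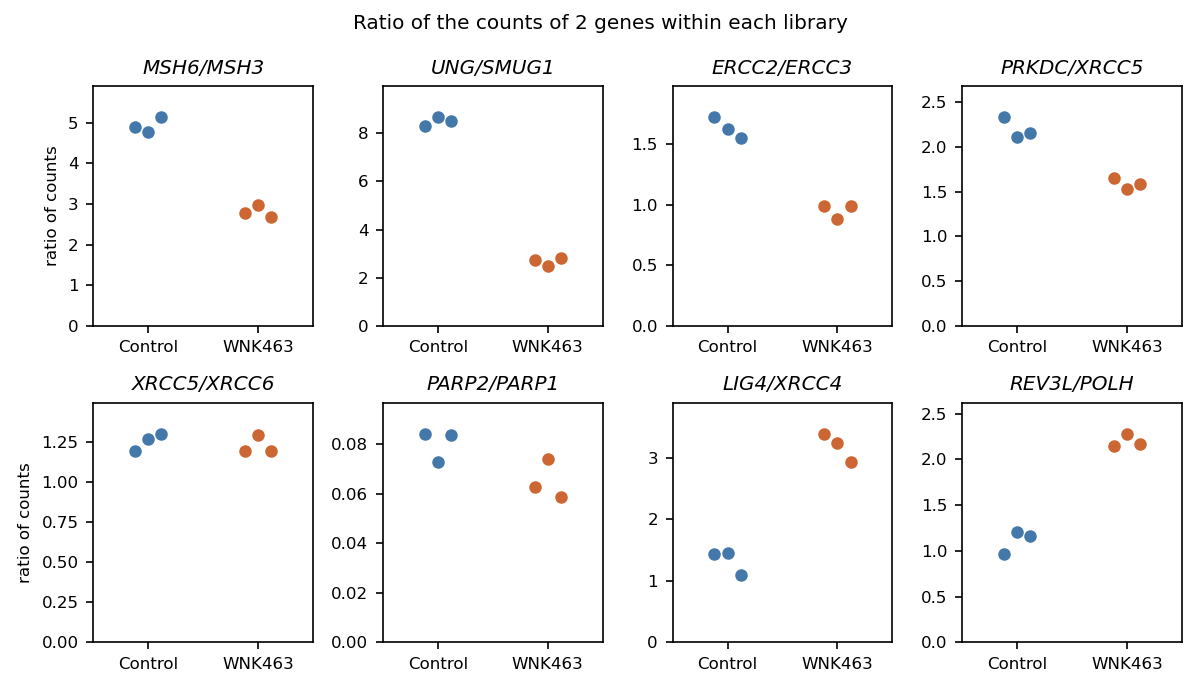
Ratio of the counts of 2 genes within each library (vertical axes from 0, no unit) in the 3 Control and 3 WNK463 samples; points are samples, and no scaling between libraries enters. Groups are apart in 6 of the 8 panels and overlap for *XRCC5* to *XRCC6* and *PARP2* to *PARP1*; the ratios are not ratios of transcript numbers, since the genes differ in length.

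In translesion synthesis 2 of 4 genes rose and 1 fell. REV3L is the catalytic subunit of polymerase zeta, which extends from a lesion after an inserter such as POLH or POLK has placed a base, and REV1 is their scaffold. *REV3L* had 66.1, 75.2 and 82.1 CPM in Control and 110.04, 108 and 109 CPM with WNK463, with no overlap (log2 fold change 0.55, standard error 0.07, adjusted p = 7.79e-07 from edgeR). *POLK* rose from 42.6 ± 4.75 to 56.7 ± 4.06 CPM (0.41, adjusted p = 0.000155), and *POLH*, which copies past ultraviolet dimers, fell from 66.9 ± 4.49 to 49.6 ± 1.88 CPM (-0.43, adjusted p = 1e-05). The count ratio of *REV3L* to *POLH* was 0.968 to 1.21 in Control and 2.15 to 2.28 with WNK463 (1.98-fold, exact permutation p = 0.1). *REV1* had 53.8 ± 3.63 and 58.3 ± 2.96 CPM and was not called with TMM, but passed as higher with total counts (0.27, adjusted p = 0.00181). It shares 852 exonic bases with *EIF5B* on the other strand. *EIF5B* had means of 227 CPM in Control and 166 CPM with WNK463 and fell (log2 fold change -0.455). Without the strand setting, reads in the shared bases cannot be told apart.

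Other genes of the same routes were read from lists of known members. Over all tested genes 35.3% fell and 35.5% rose by the same rule. The partners that mismatch repair shares with the replication fork, namely the clamp, the clamp loader and polymerase delta, together with EXO1 and meiotic MutS genes, gave 11 lower genes of 12 tested, with a median log2 fold change of -1.02, and 0 higher by edgeR, at an unadjusted p below 0.05 or by DESeq2. The largest changes were in *RFC5* (-1.67), *EXO1* (-1.36) and *RFC2* (-1.14). Of 12 other base excision genes 6 fell and 2 rose, with *FEN1* at -1.50, *PARP3* at 1.32 and *APLF* at 0.91. Of 19 other nucleotide excision genes 6 fell (31.6%) and 5 rose (26.3%), with *RPA1* at -0.94, *UVSSA* at 0.66 and *CUL4B* at 0.56. Both shares were below those of all tested genes. FEN1 and RPA1 also act at the replication fork.

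Of 13 other end joining genes tested 7 fell and 3 rose, with *POLQ*, the polymerase of an alternative end joining route, at -1.15, *PAXX* at -0.83 and *TP53BP1* at -0.59. Of 11 other translesion and damage tolerance genes 4 fell and 4 rose, with *HLTF* at -0.88, *ZRANB3* at 0.83 and *UBE2B* at 0.59. At 36.4% each, these shares were near the 35.3% and 35.5% of all tested genes. Of 3 direct reversal genes 2 fell (*ALKBH3* and *ALKBH2*, by 0.38 and 0.32 on the log2 scale) and 0 rose by edgeR, against 1 at an unadjusted p below 0.05 and 0 by DESeq2.

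Lists of genes that lie closer to DNA replication had higher shares of lower genes, given here without a test. Of 29 homologous recombination and Fanconi genes 20 fell and 2 rose, with a median of -0.68, and of 34 replication fork genes 33 fell, with a median of -1.07, while 0 rose by edgeR, at an unadjusted p below 0.05 or by DESeq2. The 42 excision, mismatch and end-joining genes had 21 lower and 11 higher with a median of -0.22. Among all tested genes 35.3% were lower and 35.5% higher. These lists share genes with those above and were not tested against each other. All 12 proliferation markers fell, with log2 fold changes from -1.53 to -0.23, and their part in the repair gene changes was not tested. In bulk samples fewer cells in a cycle phase and less RNA per cell cannot be told apart.

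**Figure D4:**
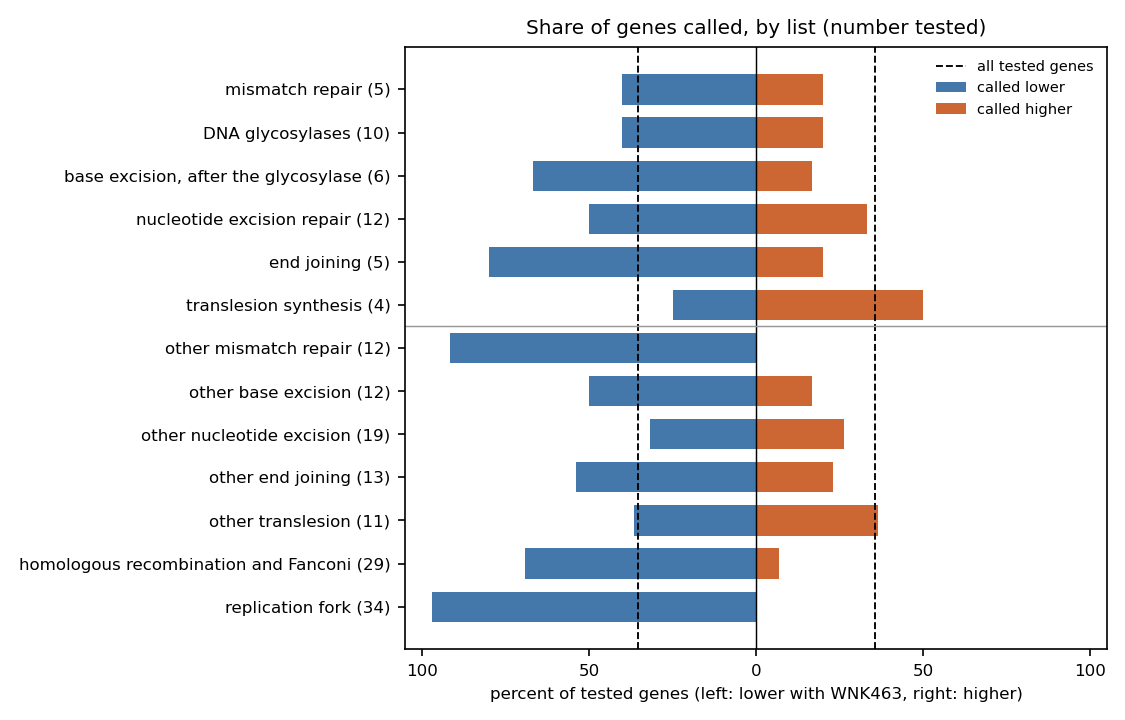
Percent of tested genes called lower (left of 0) and higher (right of 0) with WNK463 at an adjusted p below 0.05, for the 6 roles of the repair genes (above the line) and for the lists of other genes (below it); the number tested is in parentheses. Dashed lines mark 35.3% lower and 35.5% higher over all tested genes; end joining (80.0% lower) and replication fork genes (97.1% lower) reach far past the line on the left, and translesion synthesis is 50% higher.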

How the data were processed

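RNA was captured with mRNA beads and sequenced on an Illumina instrument. The submitters' processing notes list fastp, Bowtie2, HISAT2, StringTie, RSEM, DESeq2, edgeR and GRCh38, without roles or versions. The authors deposited estimated counts as whole numbers per gene (62 were 0 beside a TPM above 0) and TPM values per sample, which sum to 1000000. The deposited group means, log2 fold changes and p-values are the authors' own comparison and were not used.

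Counts of 3 Control and 3 WNK463 samples were tested over the whole table with edgeR 4.0.16 in R 4.3.3 (TMM, filterByExpr defaults, a quasi-likelihood fit and no replicate block), with Benjamini-Hochberg adjustment over 11973 genes. Standard errors were derived from the fold change and its F statistic. Alternatives used DESeq2 1.42.0, limma 3.58.1 on log2(TPM + 1) and log2(TPM + 0.1), other scalings and filters, a replicate block, and each sample left out. The gene-wise fits were tested on simulated data. Replicate pairs differed by more than sampling noise (chi-square per degree of freedom 2.68 to 7.40). Gene positions and shared exons are from GENCODE 29.

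The members and lists were chosen with earlier results of these data known. Values per sample are given for called members that moved by 0.58 or more on the log2 scale before rounding (*TDG* fell just short), for the member with the smallest p in each role, and for *MSH3*, added after its values were seen. Of each list of other genes, at most the 3 called genes with the largest changes were named, and others, including genes that share exons with members, were named after their values were seen. Of 10 count ratios formed within each library, 1 is not reported here, and p-values were adjusted over the other 9.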

Additional observations from a re-analysis of the deposited data

How the results depend on the processing

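The number of repair genes that fell stayed between 16 and 22 and the number that rose between 8 and 16 over the 14 alternative fits. Leaving out each sample in turn gave 20 to 22 lower, 8 to 10 higher and 4 to 6 changed at least 2-fold. With the replicate block 21 fell, 10 rose and 5 changed at least 2-fold. The number changed at least 2-fold was 3 with total counts (1 lower and 2 higher, against 5 lower and 0 higher with TMM) and 2 with limma on log2(TPM + 1), on log2(TPM + 0.1) and without a filter on TPM (1 lower and 1 higher in each). *NEIL1* also passed 2-fold without Control replicate 1, Control replicate 2 or WNK463 replicate 1, and *LIG4* without Control replicate 2. For the 32 called genes, 448 combinations of a gene and an alternative were run, of which 409 kept the call, 39 lost it and 0 changed direction. For the 10 genes not called, 12 of 140 combinations passed with the same sign and 14 changed sign. Among those that changed sign, *MSH3* and *DDB1* also passed, as higher, in each limma fit on TPM.

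Signs changed for *MSH3* with total counts (0.15), at least 10 counts in every sample (0.01), TPM (0.34, 0.35 with a pseudocount of 0.1 and 0.34 without a filter), without Control replicate 2 (0.01) and without WNK463 replicate 2 (0.05), over a range from -0.04 to 0.05 with each sample left out. They also changed for *PMS2* with total counts (0.05), *DDB1* with total counts (0.08) and TPM (0.12 in each of the 3 fits), *MBD4* without Control replicate 1 (-0.06, up to 0.07 over these fits) and *XPA* without Control replicate 2 (-0.02, up to 0.27). Total-count and TPM scaling raise the median of all tested genes; other causes were not tested.

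Equally numbered samples of the groups showed no shared deviation (correlations of 0.01, 0.03 and -0.07 across genes), so the numbers were not taken as pairs. The block changed 1 call, that of *POLB*. *NEIL1* and *NEIL2*, with a few CPM each, are limited by depth.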
